A study of Homo sapiens with 42 samples.

Results

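Input RNA of MOLM-13 cells under quizartinib was set against that of the same line under everolimus, both in hBMSC-CM, a medium conditioned by human bone marrow stromal cells. The comparison takes the 6 libraries that the sample labels place in these groups, 3 for each drug, of 42 in the series. MOLM-13 is an acute myeloid leukemia line (genotype labelled WT) known to carry the internal tandem duplication of the receptor kinase FLT3. Quizartinib (AC220) was given at 3 nM and everolimus at 10 nM, each alone and for 12 h. Per the study's methods, hBMSC-CM is medium from the stromal line HS-5 mixed with fresh RPMI and serum, so both groups saw stromal factors but no stromal cells, and cells for polysome profiling received cycloheximide shortly before harvest. The full series holds input and heavy polysome RNA of 7 conditions with 3 cultures each, and vehicle cultures in hBMSC-CM are used here as a reference. The data are from 1 cell line, 1 time point and 1 dose of each drug, and the 2 doses were not matched by effect.

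FLT3 is a receptor tyrosine kinase that, when mutated, drives STAT5, RAS to ERK, and PI3K to AKT signaling in leukemia cells. mTORC1 lies downstream of PI3K and AKT and of amino acid sensing, and promotes protein, nucleotide and sterol synthesis. Quizartinib inhibits the receptor itself, whereas everolimus, a rapamycin analog, inhibits only the mTORC1 branch and does so partially, sparing some substrates. The comparison asks in which transcripts inhibition at the receptor and inhibition at mTORC1 differ when stromal factors are present.

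Total counts were 19.4 to 29.6 M in quizartinib and 27.3 to 32.8 M in everolimus input libraries (M, 1e6 counts), and 3.78 to 8.02% and 3.67 to 4.25% of them fell in mitochondrially encoded genes. The everolimus cultures resembled each other more than the quizartinib cultures did. The median SD of log2 CPM (counts scaled to 1e6 per library) over genes was 0.0982 among everolimus and 0.261 among quizartinib cultures. No pair of libraries agreed within sampling noise, since the mean chi-square per gene, which is near 1 for a library counted again, was 4.78 to 6.90 between everolimus and 52.0 to 96.2 between quizartinib libraries. The labels give no run or date, so a difference in handling between the drug groups and the drugs themselves cannot be told apart. The methods call the replicates biological.

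After 12 h, 245 of 12939 genes tested differed between the drugs (1.89%), with 116 higher (0.897%) and 129 lower (0.997%) under quizartinib, at a Benjamini-Hochberg adjusted p under 0.05 in edgeR's quasi-likelihood test, which stands behind every adjusted p given here. Genes of DNA replication and nucleotide synthesis made up the largest listed group on the lower side, and genes of cholesterol synthesis and of myeloid effector functions stood on the higher side. The difference was at least 2-fold for 154 of the 245 genes and at least 4-fold for 17. Of the lower genes 115 were protein coding and 14 were pseudogenes, and of the higher genes 112 were protein coding, 3 were long noncoding RNAs and 1 was a pseudogene. Replicate values of the 2 drugs did not overlap in 244 of the called genes, against 35.7% of all genes tested. The number of calls depended on the libraries used to estimate the spread. A fit of only the libraries of these 2 drugs called 1517 genes (11.7%), 774 higher (5.98%) and 743 lower (5.74%), and leaving out 1 culture lowered the calls. They numbered 103, 91 and 193 without quizartinib replicates 1, 2 and 3 and 57, 62 and 43 without everolimus replicates 1, 2 and 3. Of 56 called genes named by rule, 42 lost the call when some culture was left out, and those that kept it throughout were RGS16, ETV4, CCNE1, PDGFA, GAL, GINS2, TYMS, ATIC, SPC24, MTHFD1L and BCL2 on the lower side and CCDC149, CD180 and MSMO1 on the higher. Bulk RNA gives relative levels without a spike-in, so fewer cells of a type or less RNA per cell cannot be told apart from a change in a transcript.

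The gene with the largest lower difference among those named by rule was RGS16, which encodes a GTPase-activating protein that shortens G protein signaling (GRCh38 chr1:182598623-182604389, minus strand). Its TMM-scaled CPM were 13.9, 15.4 and 24.6 under quizartinib and 134, 145 and 147 under everolimus, beside 49.8, 54.6 and 63.4 in vehicle. The 3 groups did not overlap, with quizartinib lowest and everolimus highest. RGS16 was 7.92-fold lower under quizartinib than under everolimus (log2 difference −2.99 ± 0.34 SE, n = 3 per drug, edgeR adjusted p = 3.13e-06), and this held with any 1 culture left out. Against the shared vehicle libraries it was lower under quizartinib (−1.64, edgeR adjusted p = 9.39e-04) and higher under everolimus (1.34, edgeR adjusted p = 0.0471). The second of these calls did not hold in any of the 6 fits that left out 1 culture (edgeR adjusted p = 0.104 to 0.226), and held in 5 of 8 other alternatives, being lost with RLE factors, library size only and input libraries only (edgeR adjusted p at most 0.0606).

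ETV4, a PEA3-family transcription factor induced through ERK signaling, came next (chr17:43527844-43579620, minus strand). It stood at 2.99, 2.95 and 4.16 CPM under quizartinib, at 19.4, 18.9 and 22.7 under everolimus and at 20.4, 12.2 and 23.3 in vehicle. Quizartinib values lay below all others, while everolimus values fell within the range of vehicle. The difference between drugs was −2.60 ± 0.45 (edgeR adjusted p = 0.00142), against a change from vehicle of −2.47 (edgeR adjusted p = 4.07e-04) under quizartinib and of 0.13 under everolimus. ETV4 shares exon positions with DHX8 on the opposite strand, and the sources do not say if reads were counted by strand.

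CCNE1, which encodes cyclin E1, the CDK2 partner at entry into S phase, followed (chr19:29811991-29824312, plus strand). Its CPM were 4.66, 6.59 and 9.30 under quizartinib, 19.1, 22.0 and 23.9 under everolimus, and 20.3 to 35.3 in vehicle. The difference between the drugs was −1.66 ± 0.31 (edgeR adjusted p = 0.00335). Values of the drugs do not overlap in any of these 12 genes, because the naming rule required it. GAL, the gene of the neuropeptide galanin, had 11.2, 13.2 and 13.1 CPM under quizartinib and 30.5, 32.9 and 36.5 under everolimus, below the 47.1 to 79.2 of vehicle in both cases (difference between drugs −1.41 ± 0.25, edgeR adjusted p = 0.00142). PDGFA, a growth factor ligand, had 4.43, 5.43 and 7.62 CPM under quizartinib, 14.7, 16.2 and 18.3 under everolimus and 4.93, 10.4 and 9.37 in vehicle (−1.5 ± 0.29, edgeR adjusted p = 0.00486). Here the everolimus cultures were the ones outside the vehicle range, although the change from vehicle did not pass the test (0.99, edgeR adjusted p = 0.129). The other members of the 12 largest lower differences were the organic anion transporter gene SLCO4A1 (−1.51), the acyl-CoA thioesterase gene ACOT7 (−1.42), the CDK1 inhibitory kinase gene PKMYT1 (−1.42), the centromere gene CENPM (−1.38), the helicase subunit genes GINS2 (−1.37) and MCM2 (−1.32), and the calcium sensor gene NCS1 (−1.32). Of the 12, 6 passed the test in each fit that left out 1 culture (RGS16, ETV4, CCNE1, PDGFA, GAL and GINS2), and MCM2 passed in none of these fits.

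The largest higher differences included the paired calprotectin genes S100A8 and S100A9, which encode calcium-binding proteins abundant in neutrophils and monocytes. S100A9 was at 76.2, 71.6 and 99.0 CPM under quizartinib, 23.9, 24.2 and 24.6 under everolimus and 33.0 to 51.4 in vehicle. The quizartinib cultures were above and the everolimus cultures below every vehicle culture, and the drugs differed by 1.76 ± 0.37 (edgeR adjusted p = 0.00849). The change from vehicle under quizartinib missed the threshold without a replicate block (1.02, edgeR adjusted p = 0.0576) and passed with it (1.03, edgeR adjusted p = 0.0102), and that under everolimus did not pass (−0.74, edgeR adjusted p = 0.567). S100A8 was at 24.2, 35.6 and 69.2 CPM under quizartinib and 8.97, 7.96 and 9.90 under everolimus (2.26 ± 0.62, edgeR adjusted p = 0.0442), with its highest value in quizartinib replicate 3.

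CD180, a Toll-like receptor homolog of B cells and monocytes, and CCDC149, which encodes a coiled-coil protein, were the 2 of the 12 higher genes that passed with any 1 culture left out. CD180 had 37.7, 44.8 and 33.7 CPM under quizartinib and 13.6, 16.1 and 13.3 under everolimus, on either side of the 19.3 to 24.2 of vehicle (1.43 ± 0.25, edgeR adjusted p = 0.00142). CCDC149 had 13.1, 15.9 and 17.7 CPM under quizartinib and 5.4, 5.0 and 5.55 under everolimus (1.55 ± 0.25, edgeR adjusted p = 6.33e-04). CD36, a scavenger receptor that takes up fatty acids and lipoproteins, was at 20.6, 33.8 and 27.5 CPM against 9.65, 11.0 and 9.23 (1.46 ± 0.36, edgeR adjusted p = 0.0239), and its vehicle values of 4.29 to 9.31 were near or below those of everolimus. The remaining genes were the lncRNA AC132872.1 (1.92), the mucin gene MUC1 (1.77), the autophagy gene TP53INP2 (1.68), the secretory effector gene SYTL3 (1.63), the hypoxia-inducible factor gene EPAS1 (1.55), the inositol transporter gene SLC5A3 (1.43) and TMEM150B (1.40), a membrane protein gene. When an everolimus culture was left out, 3 of the 12 higher genes still passed, whichever culture it was.

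**Figure D1:**
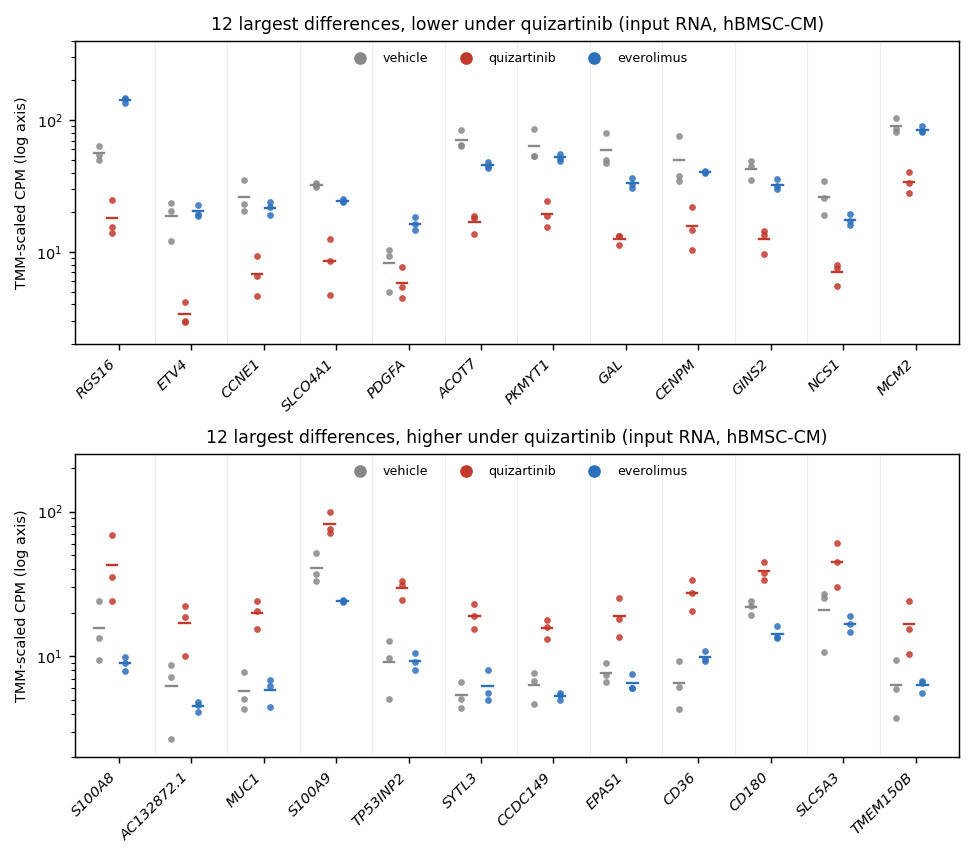
TMM-scaled CPM (log axis) of the 12 genes with the largest lower difference and the 12 with the largest higher difference, quizartinib against everolimus, in input RNA. Each dot is 1 culture and each bar a group mean over 3 cultures. The 3 quizartinib values of RGS16 (13.9 to 24.6) lie below vehicle and the 3 everolimus values (134 to 147) above it.

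DNA replication genes were lower under quizartinib as a group. Of 59 listed members, all of which passed the filter on low counts, 21 were called lower and 0 higher, against 0.997% of all genes called lower. All 59 fitted differences were negative, with a median of −0.91 against 0.005 over all genes tested, and replicate values did not overlap in 53, against 35.7% of all genes. The median ranged from −1.01 to −0.82 when 1 culture was left out, while the number called fell to between 6 (without quizartinib replicate 1) and 15. Of the 21 genes, 6 stayed called in each of these 6 fits and 6 in none, and the fit of only the 2 drugs' libraries called 46, against 5.74% of all genes called lower there. Compared with the shared vehicle libraries, the list's median was −1.23 under quizartinib, with 45 members lower. In that comparison 12.3% of all genes were called, 6.84% lower and 5.46% higher. With the replicate block 53 members were lower under quizartinib, against 11.3% of all genes. Under everolimus the median was −0.28, with 0 called (0.41% of all genes were called, 0.185% lower and 0.224% higher).

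The called members included genes that load, form and activate the replicative helicase, although the loading genes CDC6 (−0.94) and ORC1 (−0.71) and the activating gene MCM10 (−0.88) were not called (edgeR adjusted p = 0.104 to 0.345). CDT1, which loads the MCM helicase onto origins, was at 66.5, 78.6 and 105 CPM under quizartinib, 199, 198 and 194 under everolimus and 118, 127 and 188 in vehicle. Quizartinib cultures lay below and everolimus cultures above the vehicle range (difference between drugs −1.24 ± 0.20, edgeR adjusted p = 6.33e-04), but the change under everolimus alone did not pass (0.45, edgeR adjusted p = 0.474). Among the helicase subunit genes, MCM2, MCM3, MCM4, MCM5 and MCM6 were called lower by 1.0 to 1.32 on the log2 scale and MCM7 missed the threshold (−1.08, edgeR adjusted p = 0.0669). GINS2, of the complex that activates the helicase, was at 9.63, 13.4 and 14.5 CPM under quizartinib, 31.6, 29.9 and 35.5 under everolimus and 34.8 to 48.8 in vehicle (−1.37 ± 0.24, edgeR adjusted p = 0.00142). CDC45 (−1.31), GINS1 (−1.13) and GINS4 (−0.94), which belong to the same active helicase, were called too.

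The enzymes that supply deoxynucleotides differed in the same direction. RRM2, the regulated subunit of ribonucleotide reductase, was at 63.0, 72.8 and 60.6 CPM under quizartinib, 163, 152 and 158 under everolimus and 196 to 245 in vehicle. TYMS, thymidylate synthase, was at 127, 146 and 131 CPM under quizartinib, 288, 282 and 300 under everolimus and 310 to 371 in vehicle. For both genes quizartinib was lowest and everolimus lay below the vehicle range. The drugs differed by −1.27 ± 0.21 for RRM2 (edgeR adjusted p = 9.05e-04) and by −1.11 ± 0.15 for TYMS (edgeR adjusted p = 2.73e-05), and both calls held with any 1 culture left out. TYMS shares exon positions with ENOSF1 and TYMSOS on the opposite strand. Other called members were E2F8 and E2F2, transcription factors of the cell cycle, the chromatin assembly genes CHAF1A and CHAF1B, UHRF1, which maintains DNA methylation, and the repair genes BRCA1 and UNG, by −0.91 (CHAF1A) to −1.24 (E2F8). PCNA, the sliding clamp of DNA polymerases, was not called (−0.71, edgeR adjusted p = 0.0785).

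E2F transcription factors bind short GC-rich letters that start with TTT, and many promoters of replication genes hold them. RefSeq promoter sequences (GRCh38.p14) were found for 48 of the 59 members, and the 250 bases before the start were searched on both strands for TTTCCCGC, TTTGGCGC, TTTCGCGC and TTTGCCGC. At least 1 of these was present in 18 of the 48 (37.5%), against 522 of the 8943 tested genes with a promoter (5.84%), 928 of all 27305 promoters of the table (3.4%) and 4 of 47 of mitosis genes (8.51%). The 8943 are under 80% of the 12939 genes tested, so their share describes only the genes with a promoter. The 18 members with a match had a median log2 difference of −1.03 and included 8 called genes, and the 30 without one had a median of −0.78 and also included 8. Fewer than 80% of the called genes had a promoter in the table (87 of 129 lower and 78 of 116 higher), so the share among all called genes was not compared. A match is a description of the letters and not a test of binding. The windows below, 30 bases each and written 5′ to 3′ along the gene's own strand, show the match in capitals for called genes. The letters stand as listed in MCM3, MCM6 and E2F2 and as their reverse complement in the others. In MCM6 a second match, the reverse complement of TTTCGCGC, overlaps the first and is left partly in lower case.
MCM3, chr6:52284898-52284927, minus strand: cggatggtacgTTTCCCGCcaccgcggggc
MCM6, chr2:135876577-135876606, minus strand: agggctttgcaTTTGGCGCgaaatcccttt
E2F2, chr1:23531257-23531286, minus strand: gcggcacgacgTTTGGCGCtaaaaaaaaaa
CDT1, chr16:88803743-88803772, plus strand: ccagggcgcccGCGGGAAAtttggcgggaa
GINS2, chr16:85688967-85688996, minus strand: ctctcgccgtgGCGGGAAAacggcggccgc
UHRF1, chr19:4909471-4909500, plus strand: caaatgccgagttttcGCGGGAAAaaaatc

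The match began 174 bases before the start of MCM3 and 152 before that of MCM6, and 14 to 42 bases before the start of the other 4. MCM3 itself was at 135, 165 and 161 CPM under quizartinib and 326, 298 and 295 under everolimus (−1.0 ± 0.25, edgeR adjusted p = 0.0246). UHRF1 was at 84.5, 126 and 114 against 253, 229 and 218 CPM (−1.11 ± 0.27, edgeR adjusted p = 0.0223). Neither gene's groups overlapped, although MCM3 lost its call with any 1 culture left out and UHRF1 kept it in 1 of those 6 fits.

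Other lists tied to growth differed less, and their counts are to be read against the 0.997% of all genes called lower, or 5.74% in the fit of only these 2 drugs' libraries. Of 28 genes of the pentose phosphate pathway and nucleotide synthesis, 5 were called lower and 0 higher (median −0.50). They were TYMS, CAD, which starts pyrimidine synthesis (−1.09), the folate enzyme gene MTHFD1 (−1.0), the purine synthesis gene ATIC (−0.84) and the CTP synthase gene CTPS1. ATIC had 82.5, 85.8 and 82.0 CPM under quizartinib and 157, 142 and 149 under everolimus, with no overlap, and kept its call with any 1 culture left out. Of 55 mitosis genes 5 were called lower and 0 higher (median −0.35), namely MYBL2, a transcription factor of late cell cycle genes (−1.18), the kinetochore genes SPC24 (−0.96), whose counts may include reads of the opposite strand, and SPC25, the checkpoint gene MAD2L1 (−0.82) and the kinase gene AURKB (−0.77). Of 12 polyamine synthesis genes, SRM (−0.90) and ODC1 (−0.90) were lower, and of 75 mitochondrial ribosome genes MRPS26 (−0.67) and MRPL3 (−0.67) were lower, a share of 2.67%. All 51 ribosome biogenesis genes had negative differences (median −0.45), but none was called by edgeR in the fit of all libraries and 16 were called lower in the fit of only these 2 drugs' libraries.

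Cholesterol synthesis and uptake genes were higher under quizartinib than under everolimus. Of 25 measured members 6 were called higher and 0 lower, against 0.897% of all genes called higher. Differences were positive in 22 of 25, with a median of 0.49. The median stayed between 0.38 and 0.59 with 1 culture left out, with 1 to 5 members called, and the fit of only the 2 drugs' libraries called 14 higher and 1 lower, against 5.98% and 5.74% of all genes. Set against the shared vehicle libraries, the list's median was −1.04 under everolimus, with 8 members lower, against 0.185% of all genes. Under quizartinib it was −0.46, with 4 members lower, against 6.84% of all genes. For either drug 0 members were called higher. With the replicate block, by which quizartinib and vehicle cultures pair, 8 members were lower under quizartinib, against 11.3% of all genes.

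MSMO1, a sterol C4 demethylase gene, was at 16.5, 20.9 and 29.1 CPM under quizartinib, 7.04, 10.3 and 9.80 under everolimus and 21.8, 21.4 and 22.4 in vehicle. Quizartinib values surrounded those of vehicle and everolimus values were below both. The drugs differed by 1.29 ± 0.22 (edgeR adjusted p = 0.00142), with a change from vehicle of 0.02 under quizartinib and of −1.27 under everolimus (edgeR adjusted p = 0.00265). HMGCS1, which makes the precursor of mevalonate, was at 25.1, 46.0 and 37.1 CPM under quizartinib, 16.2, 16.4 and 14.8 under everolimus and 47.3, 57.2 and 58.1 in vehicle. Here both drugs were below vehicle and everolimus was lowest, and the drugs differed by 1.19 ± 0.27 (edgeR adjusted p = 0.0141). The change of HMGCS1 from vehicle was −1.78 under everolimus (edgeR adjusted p = 4.07e-04) and −0.59 under quizartinib (edgeR adjusted p = 0.145).

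The squalene epoxidase gene SQLE (1.17, edgeR adjusted p = 0.0213), the isomerase gene IDI1 (0.99, edgeR adjusted p = 0.0196) and the decarboxylase gene MVD (0.97, edgeR adjusted p = 0.0365) were also higher. Of the 6, only MSMO1 kept its call in every fit with 1 culture left out, and only 1 of the 6 stayed called without any 1 everolimus culture. STARD4, a sterol carrier gene, had a difference of 1.22 and was not called (edgeR adjusted p = 0.0759).

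**Figure D2:**
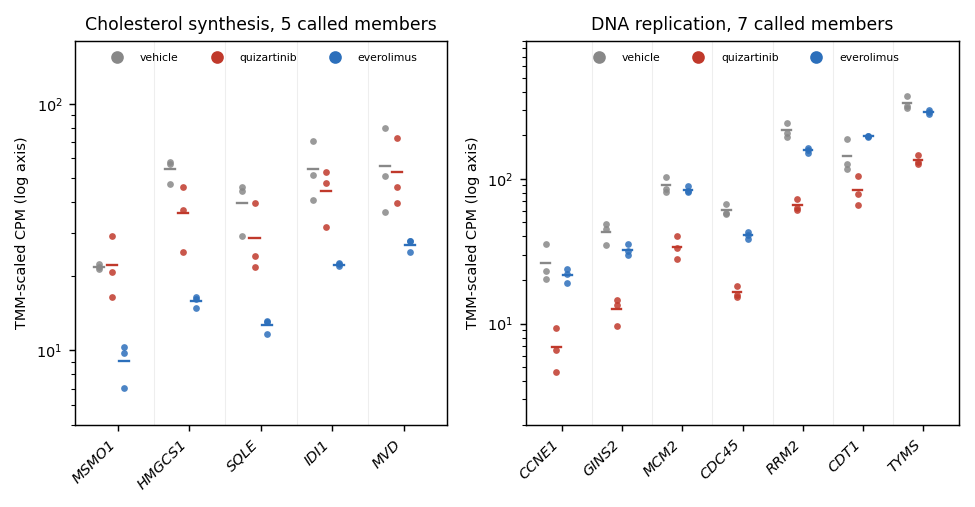
TMM-scaled CPM (log axis) in input RNA of 5 of the 6 called genes of cholesterol synthesis and uptake, left, and of 7 of the 21 called DNA replication genes, right. Each dot is 1 culture and each bar a group mean over 3 cultures. Everolimus is lowest for each cholesterol gene shown (MSMO1 7.04 to 10.3) and quizartinib is lowest for each replication gene shown (TYMS 127 to 146).

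Of 47 measured genes of myeloid differentiation and phagocyte effectors, 4 were called higher and 0 lower (8.51% higher, against 0.897% of all genes, median 0.22). These were S100A8, S100A9, CD36 and the dipeptidase gene DPEP2 (1.26), and none kept its call when an everolimus culture was left out. The fit of only the 2 drugs' libraries called 15 higher and 1 lower, against 5.98% and 5.74% of all genes. In other immune lists, each with 1 called member where 0.897% of all genes were called higher, the interferon-induced GTPase gene MX2 was higher (0.87; 1 of 30, median 0.36), as were the chemokine receptor gene CXCR4 (0.75; 1 of 24 cytokine receptor genes, median 0.40) and TNFAIP2 (1.13; 1 of 22 genes of the NF-kB response). CXCR4, the receptor by which leukemia cells home to marrow stroma, was at 157, 167 and 142 CPM under quizartinib and 91.2, 94.4 and 92.0 under everolimus, with vehicle at 84.1 to 109. All 8 measured MHC class II genes had positive differences (median 0.75), but edgeR called none in the fit of all libraries. In the fit of only these 2 drugs' libraries it called 2 higher, against 5.98% of all genes. TP53I3 was the called member of 24 p53 targets (1.70), and MXD1, an antagonist of MYC that binds its partner MAX, was the called member of 11 genes of the MYC network (0.96, edgeR adjusted p = 0.0442). Both counts are to be read against the 0.897% of all genes called higher, and the list medians were −0.02 and −0.03. Both genes lost the call with any 1 culture left out. TP53I3 was low, at 3.21, 3.75 and 4.83 CPM under quizartinib and 1.20, 1.23 and 1.17 under everolimus.

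The 34 genes of the ATF4 and amino acid response split, with 2 higher and 2 lower, against 0.897% and 0.997% of all genes. SLC7A11, the cystine transporter (1.26), and DDIT4, an inhibitor of mTORC1 (1.15), were higher under quizartinib, whereas MTHFD1L (−1.29) and GPT2 (−1.07), enzymes of mitochondrial folate and alanine metabolism, were lower. DDIT4 was at 165, 140 and 281 CPM under quizartinib, 87.1, 94.0 and 82.2 under everolimus and 166, 138 and 209 in vehicle. Everolimus values lay below every vehicle value, and quizartinib values overlapped vehicle with replicate 3 above it (edgeR adjusted p = 0.00849 between drugs and 0.0611 for everolimus against vehicle). MTHFD1L was at 29.2, 30.4 and 39.1 CPM under quizartinib, 84.8, 78.6 and 78.0 under everolimus and 78.3 to 96.2 in vehicle (edgeR adjusted p = 6.39e-04), so that quizartinib values stood apart and everolimus values did not. ATF4 itself was not called (0.16, edgeR adjusted p = 0.900).

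Among 30 genes of the FLT3 and mTORC1 pathways and of survival and metabolism, 5 were called, against 1.89% of all genes. ETV4, BCL2, ODC1 and SLC29A1 were lower and DDIT4 higher. BCL2, the antiapoptotic gene that venetoclax targets, was at 28.0, 33.9 and 27.7 CPM under quizartinib, 58.1, 62.5 and 58.3 under everolimus and 43.1 to 52.2 in vehicle. Quizartinib was below and everolimus above every vehicle culture (−1.0 ± 0.16, edgeR adjusted p = 7.40e-04), and the call held with any 1 culture left out. The change of BCL2 from vehicle under everolimus did not pass (0.33, edgeR adjusted p = 0.581). SLC29A1, a nucleoside transporter that carries cytarabine, was at 22.4, 26.0 and 24.4 CPM under quizartinib, 55.8, 57.3 and 55.9 under everolimus and 90.6 to 119 in vehicle (−1.22 ± 0.33, edgeR adjusted p = 0.0454), and lost its call with any 1 culture left out. ODC1, which starts polyamine synthesis, was at 44.5, 50.2 and 51.9 against 88.8, 94.3 and 91.2 CPM, with vehicle at 132 to 151. For both genes the order was quizartinib, everolimus, vehicle, without overlap.

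The drug targets and most signaling readouts did not pass the test in the fit of all libraries. FLT3 was at 65.0, 61.5 and 32.6 CPM under quizartinib and 54.4, 52.0 and 46.1 under everolimus (0.06 ± 0.26, edgeR adjusted p = 0.961), and MTOR at 64.6 to 68.1 and 76.6 to 82.6 (−0.26 ± 0.35). Among STAT5 targets, PIM1 (0.06), PIM2 (0.07), CISH (−0.31) and SOCS2 (0.22) were not called. Of the ERK readouts, 22 of 23 measured genes had negative differences (median −0.43), but apart from ETV4 they were not called, including ETV5 (−1.08, edgeR adjusted p = 0.152), EGR1 (−1.30, edgeR adjusted p = 0.223), DUSP6 (−0.36), SPRY2 (−0.58) and SPRY4 (−0.51). In the fit of only these 2 drugs' libraries 5 of the 23 were called lower and 0 higher, against 5.74% and 5.98% of all genes. ETV5 (edgeR adjusted p = 0.00855) and EGR1 (edgeR adjusted p = 0.0329) passed there. MYC was at 449, 322 and 362 CPM under quizartinib and 495, 499 and 517 under everolimus, which did not overlap but did not pass (−0.42 ± 0.29, edgeR adjusted p = 0.601). BCL2L11, the proapoptotic BIM gene, was at 70.2, 55.2 and 34.3 against 30, 29.1 and 29.5 CPM (0.85 ± 0.26, edgeR adjusted p = 0.0896), and MCL1 had a difference of −0.08. The others not called were ATM (−0.20), CCND2 (−0.14), CCND3 (−0.18), TXNIP (−0.26), IDH3A (−0.11), ATP5MC1 (−0.78), CYCS (−0.56), UCP2 (−0.37), IRS2 (−0.33), FPR1 (0.83) and ATF4. Standard errors in this group were 0.15 (CISH) to 0.72 (SPRY4), so differences of 2-fold or less, and some above it, were often not detectable. In simulated data, which gave all groups the same spread per gene, 38.2% of true log2 differences of 1 were recovered in input.

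Several lists had no called member and medians near that of all genes. This held for 79 cytosolic ribosome genes, whose median of −0.01 turned to 0.01 with scaling by library size only and 0.03 with RLE factors, 75 nuclear genes of oxidative phosphorylation (−0.11), 15 other messages with a 5′ terminal oligopyrimidine tract (5TOP, −0.11), 25 glycolysis genes (−0.06), 32 proteasome genes (−0.11) and 18 STAT5 and cytokine-response targets (0.11). The 45 lysosome and autophagy genes had a median of 0.32 with none called in the fit of all libraries. In the fit of only these 2 drugs' libraries 10 were higher and 1 lower, against 5.98% and 5.74% of all genes. The median of the 13 mitochondrially encoded genes was 0.40, but it turned to −0.23 without quizartinib replicate 1.

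**Figure D3:**
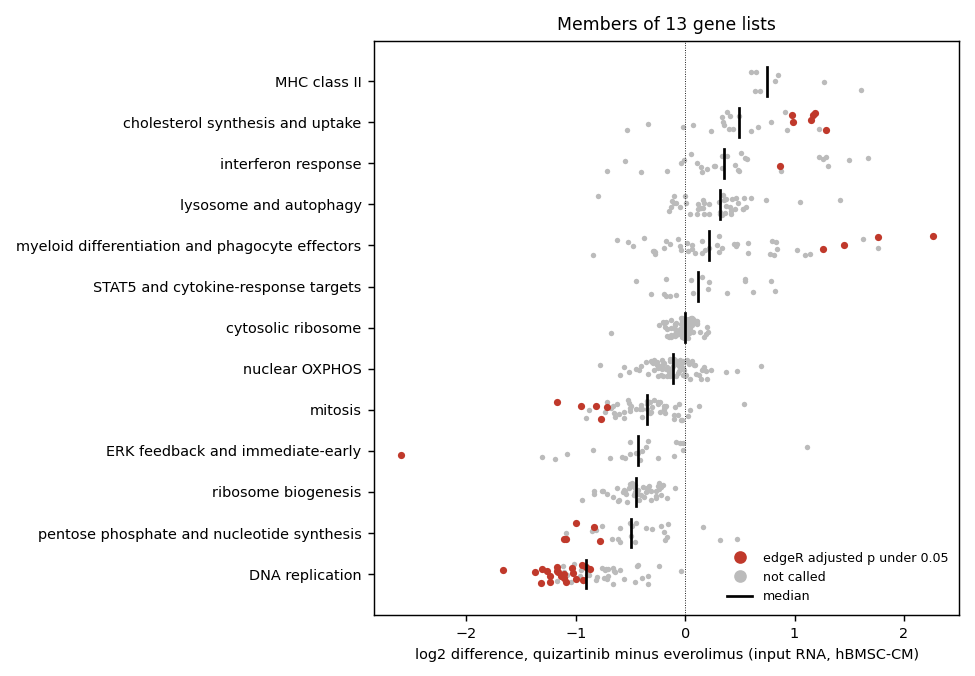
Log2 difference, quizartinib minus everolimus, in input RNA for members of 13 gene lists. Each point is a gene, red where the edgeR adjusted p was under 0.05 and grey where not, and black bars are list medians. DNA replication (median −0.91) lies furthest left and MHC class II (median 0.75, none called) furthest right, while cytosolic ribosome genes center on 0.

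The labelled cell type was checked against markers. All 10 identity markers of a myeloid leukemia line passed the filter, with summed CPM of 2965 to 3274 under quizartinib and 3013 to 3098 under everolimus (exact permutation test, two-sided, p = 0.800). Of 22 stromal markers, 6 had 0 counts in all 6 libraries (COL3A1, COL5A1, THY1, LUM, POSTN and CALD1) and 6 passed the filter. Stromal sums were 460 to 584 CPM under quizartinib and 413 to 440 under everolimus (exact permutation test, two-sided, p = 0.1, the smallest 3 against 3 allows). The most counted markers were S100A6, which myeloid cells also express (4597 to 6945 counts per library), IGFBP7 (3134 to 5474) and ENG (1482 to 3179). Of 12 lymphoid, erythroid and epithelial markers, 5 were at 0 counts in all 6 libraries, among them CD3E, HBB, EPCAM and CDH1, and sums were 12.7 to 23.5 and 16.4 to 19.4 CPM (exact permutation test, two-sided, p = 0.900). Of the 6 stromal markers that passed the filter, 2 were called higher under quizartinib and 0 lower, against 0.897% of all genes called higher. They were COL1A1, a collagen chain gene, and TAGLN, an actin-binding protein gene (1.3). TAGLN was at 5.40, 5.49 and 5.98 CPM under quizartinib and 2.76, 2.22 and 1.87 under everolimus, and lost its call with any 1 culture left out. Differences were positive for 4 of the 6 stromal markers and negative for 2, the lowest being that of ACTA2 (−0.28). COL1A1 was at 4.05, 18 and 14 CPM under quizartinib, 2.01, 1.71 and 1.27 under everolimus and 0.551 to 0.734 in vehicle (2.84 ± 0.70, edgeR adjusted p = 0.0237), and kept its call in 1 of the 6 fits that left out a culture. In RPMI without stromal medium it was at 8.31, 33.0 and 20.3 CPM under quizartinib and 0.151 to 2.35 in vehicle, so that the higher level was also present without conditioned medium.

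Heavy polysome RNA of the same cultures, which is enriched in messages carrying many ribosomes, was compared after subtraction of the input difference. edgeR called 0 of 12939 genes (0.0%), with 328 at an unadjusted p under 0.05 and a lowest adjusted p of 0.161, and DESeq2 called 2. In simulated data, which gave all groups the same spread per gene, this contrast recovered 9.18% of true log2 differences of 1. Differences of that size would there mostly go uncalled. Everolimus polysome libraries 2 and 3 stood apart, with 1980 and 3805 counts of the epithelial keratin gene KRT7 against at most 15 in the other 40 libraries, and summed lymphoid, erythroid and epithelial markers of 60.9 and 102.5 CPM against 21.9 in everolimus replicate 1 and 22.1 to 30.6 under quizartinib. The part of these transcripts in the result was not tested. A fit without these 2 libraries keeps only everolimus polysome replicate 1, so it cannot show whether they matter for polysome relative to input. It called 191 genes in input, where no library was left out.

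List medians of the polysome difference are best read against the median over all genes, which was 0.10 with TMM factors and −0.02 with scaling by library size only. Cytosolic ribosome genes, whose translation is known to depend on mTORC1, had a median of 0.03 and the other 5TOP messages of −0.01. Per culture, the median log2 polysome level minus input of cytosolic ribosome genes was −0.63, −0.43 and −0.22 under quizartinib and −0.45, −0.50 and −0.41 under everolimus, so everolimus lay within the range of quizartinib, and vehicle was at −0.14, 0.19 and −0.20. DNA replication genes were at 0.86, 0.45 and 0.56 under quizartinib and 0.39, 0.43 and 0.35 under everolimus, with vehicle between 0.42 and 0.51. The nearest values of the drugs, 0.45 and 0.43, were close together. These per-culture values are not adjusted for the median over all genes of 0.10. The everolimus values 0.43 and 0.35 are from the 2 polysome libraries that stood apart. The between-drug median for the DNA replication list was 0.30, or 0.18 with scaling by library size only. It was 0.28 without the 2 libraries that stood apart, a fit with only everolimus polysome replicate 1. In the fit of all libraries 0 of its members were called.

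**Figure D4:**
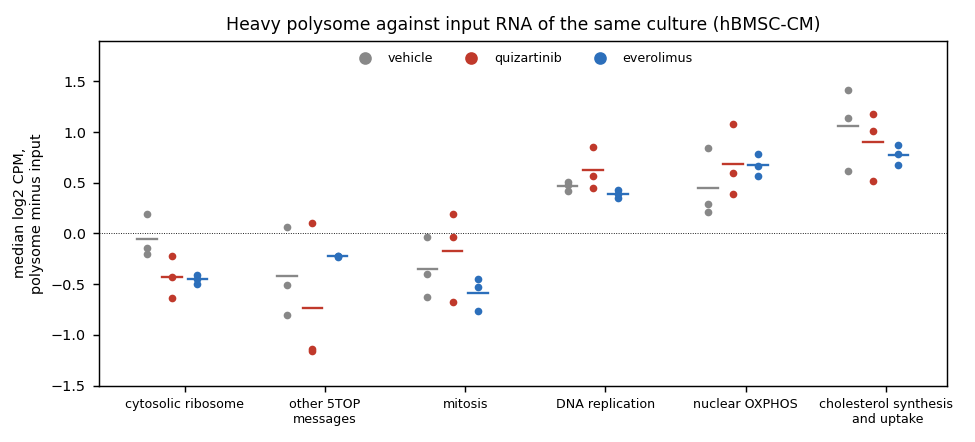
Median log2 CPM over the genes of 6 lists, heavy polysome minus input RNA of the same culture in hBMSC-CM. Each dot is 1 culture and each bar a group mean over 3 cultures. Quizartinib and everolimus overlap for cytosolic ribosome genes (−0.63 to −0.22 and −0.50 to −0.41). For DNA replication genes (0.45 to 0.86 and 0.35 to 0.43) the nearest values of the drugs, 0.45 and 0.43, lie close together.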

How the data were processed

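RNA-seq was analysed as the raw counts per gene that the authors deposited, without normalization or a filter. The authors made poly(A)-selected libraries (Universal Plus mRNA-seq), sequenced both ends (NovaSeq6000), trimmed with BBDuk, dropping reads under 50 bases, and aligned and counted them with STAR 2.6.0a on Ensembl hg38. The sources do not say if counting used strand, and the reads carry no molecular identifiers. Besides ETV4, TYMS and SPC24, other called genes share exon positions with the opposite strand, among them GINS1, GINS2, PKMYT1, DPEP2, TP53I3, MTHFD1 and TAGLN. Depth was 19.4 to 38.8 M counts (M, 1e6) per library.

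Of 58884 gene rows, 25133 held no count. Rows sharing a name (150 names) were summed, and the 12939 genes averaging 1 count and 1 CPM or more were kept, holding 99.8% of counts. All columns matched a sample by name (0 left unused). All 42 libraries entered 1 robust quasi-likelihood fit with 14 group means and TMM factors (R 4.3.3, edgeR 4.0.16), with a Benjamini-Hochberg threshold of 0.05 and a common biological coefficient of variation of 0.279. The study's own fit used limma. Contrasts were quizartinib minus everolimus in input, the same in polysome minus input, and each drug minus vehicle in input, which share vehicle libraries. The fit was tested on simulated data, where it recovered 38.2% of true log2 differences of 1 and 90.8% of those of 2 in input. For polysome relative to input it recovered 9.18% and 71.6%. The simulation gave all groups the same spread per gene. In the real input libraries the median SD of log2 CPM was 0.0982 under everolimus and 0.261 under quizartinib, so these rates are only a rough guide. Errors are SE, and limma 3.58.1 and DESeq2 1.42.0 served as alternatives.

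Named genes were the 12 largest differences in each direction among called genes averaging 10 CPM or more without overlap, 30 pathway genes whatever their values, and up to 4 called members of each list in each direction. DNA replication members beyond these, and any count of 5 or fewer that is spelled out, were named after their values were seen, as were STARD4, PCNA, CDC6, ORC1, MCM10 and MCM7. The comparison, lists and rule were chosen with earlier results of these data known. Replicate numbers did not pair everolimus with the other groups. Deviations of same-numbered cultures correlated at −0.01, −0.01 and 0.0 between quizartinib and everolimus and at −0.02, 0.0 and −0.01 between everolimus and vehicle, but at 0.62, 0.41 and 0.57 between quizartinib and vehicle, which therefore pair. For quizartinib against vehicle, values with a replicate block are given where they change a call or a count by over 1.5 times. Alternatives covered scaling, filters, the fitted libraries, a replicate block, limma, DESeq2 and each culture left out. Gene positions are from GENCODE v44 (GRCh38). A few genes are not reported here.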

Additional observations from a re-analysis of the deposited data

Results flagged for a closer look

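RGS16 was marked because its changes from vehicle went in opposite directions under the 2 drugs and the difference itself passed the test. It was 1.64 lower on the log2 scale under quizartinib (−1.64, edgeR adjusted p = 9.39e-04) and 1.34 higher under everolimus (edgeR adjusted p = 0.0471), a difference of −2.99 (edgeR adjusted p = 3.13e-06) with no overlap in 3 of 3 cultures on either side. Both changes use the same vehicle libraries. The quizartinib change kept its call in all 6 fits that left out a culture, whereas the everolimus change kept it in 0 of 6 and in 5 of 8 other alternatives.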

How the results depend on the processing

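The 245 input calls stayed within 1.5 times with RLE factors (247), library size only (230), no filter (300), a 10 CPM filter (245), limma (320) and without everolimus polysome libraries 2 and 3 (191). They rose to 994 with input libraries only, 1517 with only the 2 drugs' libraries and 432 with DESeq2. With a replicate block they were 614, with the block within each fraction 1393, and with the block and only the 2 drugs' libraries 959. The numbers do not pair these 2 drugs. Leaving out 1 culture gave 43 to 193, and 0 called genes changed sign in any setting. Of the 245, 122 held in all 11 alternatives that kept every culture and 35 with any culture left out. Calls in polysome relative to input went from 0 to 30 without a filter and 2 with DESeq2, and were 0 to 6 with 1 culture left out. Quizartinib against vehicle (1591 calls) gave 3343 with input libraries only, 2678 with the replicate block, by which these groups pair, and 929 to 1596 with 1 culture left out. Everolimus against vehicle (53) gave 476, 244 and 9 to 63 (13, 11 and 9 without everolimus replicates 1, 2 and 3, 23 and 16 without vehicle replicates 1 and 3), and 105 with limma.

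Signs turned only for genes not called. FLT3 was −0.0095 with the replicate block within each fraction and −0.11 to 0.32 with 1 culture left out, PIM1 −0.024 to 0.19 and ATF4 −0.32 to 0.38. The sign turned without quizartinib replicates 1 and 2 and everolimus replicate 3 for FLT3, without quizartinib replicates 1 and 3 for PIM1 and without quizartinib replicate 3 for ATF4. The causes were not tested. Calls near the threshold, such as SLC29A1, rest on 3 cultures per drug, and the spread pooled over groups that enters each SE is larger than that among everolimus cultures.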

Other observations

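The genes in this section were chosen after their values were seen. Single genes outside the named set that were lower under quizartinib included the checkpoint kinase gene CHEK1 (14.2, 15.9 and 17.0 against 26.9, 28.2 and 27.1 CPM, log2 difference −0.81), the phosphatase gene CDC25A (−0.90), the exonuclease gene EXO1 (−0.92) and PRKDC, the catalytic subunit of DNA-dependent protein kinase (−1.09). MIF, a cytokine gene, was at 25.6, 31.2 and 53 CPM under quizartinib and 82.8, 83.9 and 84.0 under everolimus (−1.19). On the higher side, TGM2, a transglutaminase gene, was at 7.80, 4.61 and 19.3 against 0.782, 1.28 and 1.14 CPM (3.30), and the lysosomal enzyme genes CTSL (1.15) and FUCA1 (1.22) and the growth factor gene VEGFA (1.12) were higher too. Each passed edgeR's test with Benjamini-Hochberg adjustment (adjusted p = 0.0141 for TGM2 and 0.0228 to 0.0407 for the others), none kept its call in all 6 fits that left out a culture, and the drugs' values did not overlap.

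Of the 14 pseudogenes called lower, 13 were processed copies, such as YBX1P1, PA2G4P1 and HNRNPA3P6. HNRNPA3 itself was called lower (−0.62), whereas YBX1 (−0.66) and PA2G4 (−0.70) were not. Reads can be shared between such copies and their parent genes, so these calls are uncertain.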
